A study of Mus musculus with 56 samples.

Results

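The microRNAs other than miR-122 were compared between mouse livers 21 days after excision of the miR-122 gene and uninjected livers of the same genotype. Members were all microRNAs that reached 10 RPM (reads per 1000000) on average over the 6 libraries of these groups, after the reads of miR-122 had been set aside, which gave 228 of the 479 microRNAs in the table. The day 0 group held 3 adult 129Sv/J mice with loxP sites on either side of pre-miR-122 that had received no virus. The day 21 group held 3 mice of the same floxed line that had been injected through the tail vein with rAAV8-Ef1a-Cre, a recombinant adeno-associated virus that carries Cre recombinase. All 6 mice thus carried the floxed alleles, and each library came from the whole liver of 1 mouse. The Ef1a promoter is active in many cell types, the controls had received no control virus, and sex was not given in the labels, so excision, exposure to the virus and expression of Cre cannot be told apart in this comparison. By the design text of the series the same livers were also profiled by poly-A RNA-seq, given as FPKM, which scales fragments to transcript length and library size, and those values were set beside the microRNAs as a separate readout. That a replicate letter names the same mouse in both assays is not stated there.

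MicroRNAs are cut from hairpin precursors by Drosha and Dicer, and each hairpin can give a mature strand from its 5′ arm and another from its 3′ arm. A mature microRNA binds messenger RNAs mainly through its seed, bases 2 to 8, and lowers their stability and translation. miR-122 is by far the most abundant microRNA of hepatocytes. Whole liver also holds leukocytes, endothelial cells, stellate cells and bile duct cells, and several microRNAs are enriched in one of these: miR-142, miR-150, miR-155, miR-223 and miR-342 in leukocytes, miR-143, miR-145, miR-199 and miR-214 in mesenchymal cells, and miR-200 family members in epithelia such as bile ducts. The imprinted Dlk1-Dio3 locus on chr12qF1 encodes the maternally expressed RNAs Meg3, Rian and Mirg and a very large group of microRNAs, which are high in the fetus and low in most adult tissues. miR-34a is a transcriptional target of p53. In bulk tissue, fewer cells of a type and less RNA per cell cannot be told apart.

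Each entry of the table is a hairpin, so the reads of its arms were not separated. The sequences of the microRNAs that the comparison turned on are shown because their seeds differ from one another. They are mature mouse sequences from RefSeq (build GRCm38.p6), written 5′ to 3′ with the seed in capitals. The first set holds both arms of the 5 microRNAs that passed the test from places outside chr12qF1 and had a matched sequence:
miR-342-5p: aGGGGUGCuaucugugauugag
miR-342-3p: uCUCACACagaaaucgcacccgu
miR-34a-5p: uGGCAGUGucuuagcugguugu
miR-34a-3p: aAUCAGCAaguauacugcccu
miR-155-5p: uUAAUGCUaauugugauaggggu
miR-155-3p: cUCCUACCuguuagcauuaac
miR-223-5p: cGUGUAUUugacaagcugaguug
miR-223-3p: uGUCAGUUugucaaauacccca
miR-205-5p: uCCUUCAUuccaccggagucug
miR-205-3p: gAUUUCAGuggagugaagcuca

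The second set holds microRNAs of chr12qF1. The arms of miR-665 and miR-434 are shown because these had the lowest p values of the locus, and the pairs miR-376b-5p with miR-376c-5p and miR-379-3p with miR-411-3p because each pair shares a seed:
miR-665-5p: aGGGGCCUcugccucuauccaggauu
miR-665-3p: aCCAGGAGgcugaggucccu
miR-434-5p: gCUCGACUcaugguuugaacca
miR-434-3p: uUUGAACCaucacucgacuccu
miR-376b-5p: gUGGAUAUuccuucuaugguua
miR-376c-5p: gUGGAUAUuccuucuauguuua
miR-379-3p: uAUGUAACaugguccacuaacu
miR-411-3p: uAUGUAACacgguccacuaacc

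RefSeq entries were matched by symbol for 188 of the 228 members and for 13 of the 15 that passed the test. Those 13 gave 26 mature sequences with 26 distinct seeds, so no seed was shared among them. Of the 26, 2 shared a seed with another of the 188 matched members, namely miR-376b-5p with miR-376c-5p and miR-379-3p with miR-411-3p. By contrast the abundant let-7f-5p (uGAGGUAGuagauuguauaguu) carries a seed found in 10 of the 188 matched members. Among the matched members 33 shared a whole mature sequence with another, and reads of those hairpins cannot be assigned to 1 gene.

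miR-122 itself, the targeted microRNA, was measured first as a check of the labels. It took 73.3%, 59.2% and 66.7% of the microRNA reads of day 0 mice A, B and C (66.4% ± 7.06, SD, n = 3) and 12.5%, 13.2% and 8.22% of those of day 21 mice A, B and C (11.3% ± 2.70, SD, n = 3). The groups did not overlap, and miR-122 reads per read of other microRNAs fell by 4.00 on the log2 scale (exact two-sided permutation test, p = 0.1, the smallest that 3 mice against 3 allow). The libraries held 618498 to 808327 microRNA reads at day 0 and 494292 to 866881 at day 21. With miR-122 set aside, 215901 to 252521 reads were left at day 0 and 429070 to 795619 at day 21, so that a microRNA with no read could have been present at up to 11.9 to 13.9 RPM in the day 0 libraries. Libraries also differed in composition. miR-21 alone took 22.4% of the other reads of day 0 mouse B and 33% of those of day 21 mouse C, against 1.70% to 12% in the remaining 4 libraries, and the median microRNA of day 0 mouse C lay 0.87 below the average library on the log2 scale.

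Of the 228 microRNAs, 163 were higher and 65 lower at day 21 on the log2(RPM + 1) scale, with a median log2 fold change of 0.52. In limma's test on this scale with Benjamini-Hochberg adjustment over all 228, 15 microRNAs rose at an adjusted p of at most 0.05, which is 6.58% of those tested, and 0 fell (0.0%). At an unadjusted p of at most 0.05 there were 39 higher and 3 lower, and limma's voom on the recovered reads called 10 higher and 0 lower. The 15 were miR-342, miR-34a, miR-155, miR-223, miR-205 and miR-669o together with 9 microRNAs of chr12qF1: miR-665, miR-434, miR-376b, miR-299, miR-154, miR-136, miR-409, miR-541 and miR-379. All 3 day 21 mice lay above all 3 day 0 mice for each of the 15, and for 48 of all 228 (21.1%), and no microRNA had all day 21 mice below all day 0 mice. The count depended on single mice: it was 6 without day 21 mouse C, 8 without day 0 mouse A or without day 0 mouse C, 10 without day 21 mouse B, 17 without day 21 mouse A and 26 without day 0 mouse B. When each library was centred on its median microRNA, the median change was 0.03 and 7 microRNAs were called higher (miR-342, miR-34a, miR-665, miR-434, miR-376b, miR-299 and miR-669o).

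**Figure D1:**
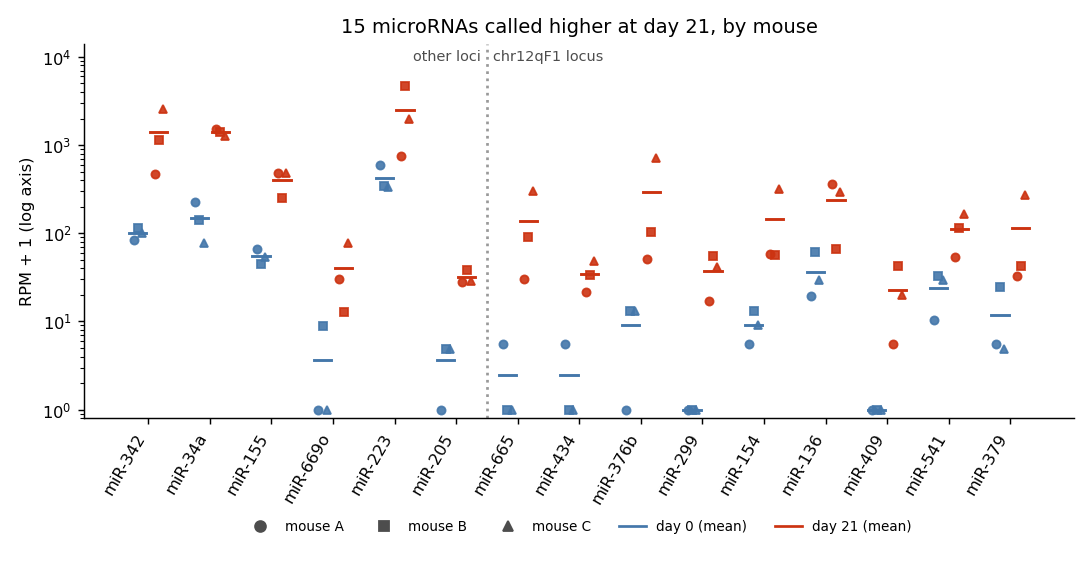
RPM + 1 on a log axis for the 15 microRNAs that rose, with 1 point per mouse (marker shape gives the mouse) and a line at the mean of each group of 3. Day 21 points lie above every day 0 point for each microRNA, and miR-299 and miR-409 sit at 0 RPM in all 3 day 0 mice.

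Low counts set limits on these calls. Of the 15, 8 had a day 0 mean below 10 RPM (miR-665, miR-434, miR-376b, miR-299, miR-669o, miR-154, miR-205 and miR-409) and passed the filter only through day 21, so their rise was partly a condition of being tested. Among all members 24 had such a day 0 mean, and 0 had a day 21 mean below 10 RPM. The 204 members with at least 10 RPM at day 0 held all 65 that were lower, and 7 of them were called higher (miR-342, miR-34a, miR-155, miR-223, miR-136, miR-541 and miR-379), with a median of 0.38.

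**Figure D2:**
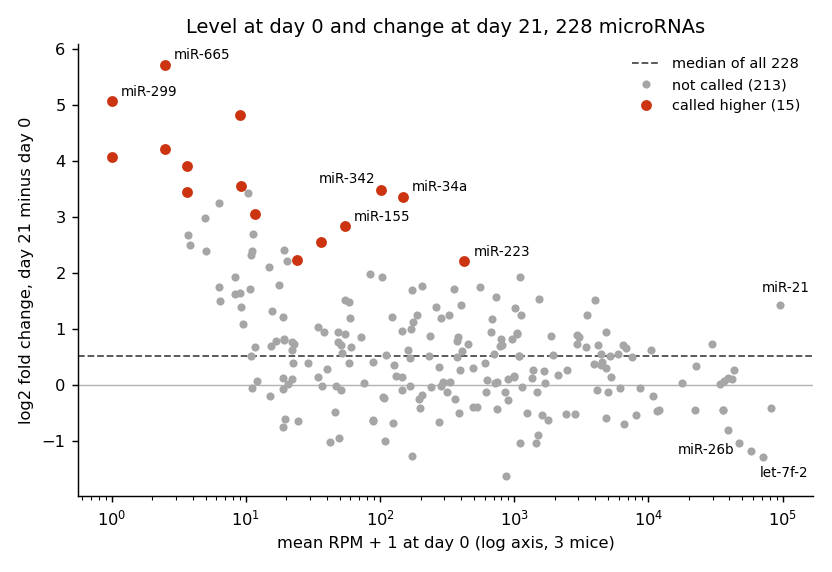
Mean RPM + 1 at day 0 (log axis, 3 mice) against the log2 fold change at day 21 for the 228 microRNAs, with the 15 that rose in colour and the median of all 228 as a dashed line. The called microRNAs lie at the low and middle levels, and most of the abundant microRNAs at the right, let-7f among them, sit near or below the dashed line, with miR-21 (1.44) above it.

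Outside chr12qF1 and the Sfmbt2 intron, 5 microRNAs rose: miR-342, miR-34a, miR-155, miR-223 and miR-205. miR-342, a leukocyte-enriched microRNA in an intron of Evl (mm9, chr12:109896830-109896928, plus strand), was at 83.5, 115 and 100.8 RPM in day 0 mice A, B and C and at 475, 1147 and 2563 RPM in day 21 mice A, B and C. Its lowest day 21 mouse was well above the highest day 0 mouse, and it rose by 3.49 ± 0.64 (SE) on the log2 scale (adjusted p = 0.0035). miR-34a (mm9, chr4:149442563-149442664, plus strand, with no annotated gene around it on that strand) was at 222.4, 138.6 and 76.8 RPM at day 0 and at 1522, 1403 and 1257 RPM at day 21. The day 21 mice lay close together, at 1394 ± 132.6 RPM (SD, n = 3), and the log2 fold change was 3.37 ± 0.66 (SE, adjusted p = 0.0041). The other members of its family, miR-34b and miR-34c, did not reach 10 RPM.

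miR-155, which is induced in activated lymphocytes and macrophages and is cut from an exon of its own noncoding RNA (mm9, chr16:84714385-84714449, plus strand), was at 64.8, 43.6 and 52.5 RPM at day 0 and at 477, 249 and 482.7 RPM at day 21. The groups stood apart by more than their spread, with a log2 fold change of 2.84 ± 0.67 (SE, adjusted p = 0.014). miR-223, the myeloid microRNA of neutrophils and monocytes (mm9, chrX:93438156-93438265, plus strand, in an exon of F630028O10Rik), was at 598, 340.5 and 335.1 RPM at day 0 and at 741, 4715 and 1987 RPM at day 21. Day 21 mouse A was only a little above day 0 mouse A, while mice B and C were far above it (log2 fold change 2.22 ± 0.59, SE, adjusted p = 0.028). miR-205, a microRNA of stratified epithelia (mm9, chr1:195333657-195333724, minus strand, in an exon of 4631405K08Rik), had 2 reads in the 3 day 0 libraries together and 50 in the day 21 libraries. Per read of other microRNAs that is a ratio of 10.8 (exact 95% interval of counting error 2.83 to 91.3), and the day 21 mice lay at 27.3, 37.3 and 27.7 RPM (adjusted p = 0.029).

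Leukocyte-enriched microRNAs as a list had 8 members, all of them above 10 RPM at day 0. Of these, 7 were higher, 3 were called (miR-342, miR-155 and miR-223), where 6.58% of all 228 were, and 5 had all day 21 mice above all day 0 mice, where 21.1% of all 228 had. The list's median log2 fold change was 1.5 against 0.52 for all 228. Their summed level was 5067, 4384 and 5893 RPM at day 0 and 9025, 10367 and 15050 RPM at day 21, without overlap. miR-150, a microRNA of mature lymphocytes, was at 287, 170 and 157 RPM at day 0 and at 298.9, 981 and 1047 RPM at day 21 (log2 fold change 1.77 ± 0.59, SE, adjusted p = 0.074), and it was called without day 21 mouse A (adjusted p = 0.022). miR-142, the most abundant of the list and expressed across blood cell lineages, overlapped between the groups (2525, 1996 and 4331 RPM against 5322, 2452 and 7712 RPM, adjusted p = 0.49). miR-146a and the macrophage microRNA miR-511 also overlapped. Centred on the library median, the list had a median of 1.00 with 6 of 8 higher and 1 called, and without day 21 mouse C only miR-342 was called.

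Leukocyte messenger RNAs were also higher in these livers. Of 9 leukocyte markers, 8 were tested in the RNA-seq data, 6 were called higher, where 6.2% of 11354 genes were, and all 8 had all day 21 mice above all day 0 mice (25.2% of the tested genes did). The called Cd3e, Cd79a, Ms4a1 and Itgam had day 0 means below the filter of 1 FPKM and entered the test through other groups, so their rise was partly a condition of being tested. Ptprc, which encodes CD45, was at 2.43, 2.00 and 3.87 FPKM at day 0 and at 8.69, 9.52 and 12.1 FPKM at day 21 (log2 fold change 1.58 ± 0.25, SE, adjusted p = 0.0045). Summed over the list, the level was 79.7 to 144.6 FPKM at day 0 and 229 to 413 FPKM at day 21, most of it from Lyz2, which was not called (68.1 to 118 FPKM against 172 to 297.6 FPKM, adjusted p = 0.070). The part of these markers in the changes of miR-342, miR-155 and miR-223 was not tested. Hepatocyte markers had 0 calls among the 3 tested (Apoa1, Ttr and Cps1), with 20366 to 22519 FPKM summed at day 0 and 17526 to 18582 FPKM at day 21, and Alb and Serpina1a were listed at 0 in every library. By unadjusted p, 1 of these 3, Apoa1, was lower (log2 fold change -0.72, adjusted p = 0.15).

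The chr12qF1 microRNAs stood at few reads per library at day 0 and were higher at day 21. All 52 listed members, filter or not, together gave 281, 301.3 and 337.8 RPM in day 0 mice A, B and C (61, 76 and 84 reads) and 1043, 1396 and 3829 RPM in day 21 mice A, B and C (457, 599 and 3046 reads). The groups did not overlap, at 307 ± 28.7 RPM against 2089 ± 1517 RPM (SD, n = 3), and mouse C was the highest at day 21. In the day 0 libraries 15, 15 and 19 of the 52 had a read, and in the day 21 libraries 30, 30 and 39, with the day 21 libraries deeper for microRNAs other than miR-122. Of the 52, 19 passed the filter, 13 of them with a day 0 mean below 10 RPM. The remaining 6 (miR-127, miR-136, miR-337, miR-376a, miR-379 and miR-541) were all higher, where 65 of all 204 members with at least 10 RPM at day 0 were lower. Of the 6, 3 were called, where 7 of the 204 were. The median log2 fold change of the 6 was 2.23, beside 0.38 for the 204.

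**Figure D3:**
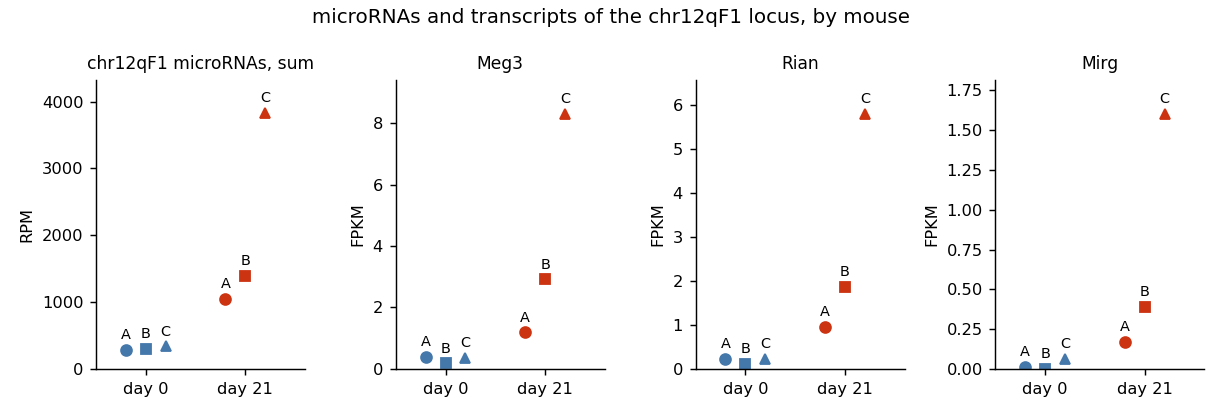
Summed RPM of the 52 chr12qF1 microRNAs and FPKM of Meg3, Rian and Mirg at day 0 and day 21, with 1 lettered point per mouse on axes that start at 0. In every panel mouse C is the highest at day 21 and mouse A the lowest, and all day 0 points lie below all day 21 points.

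The 7 called microRNAs of the locus whose hairpins were matched in the mm9 annotation lay within 156185 bases on chr12:110824524-110980708, all on the plus strand, with miR-665 at the proximal end (chr12:110824524-110824617) and miR-541 at the distal end (chr12:110980619-110980708). miR-154 (chr12:110976634-110976717) and miR-541 lay in introns of Mirg. miR-665 had 1 read in the day 0 libraries together and 287 at day 21, a ratio of 123.6 per read of other microRNAs (exact 95% interval of counting error 22.0 to 4899), with day 21 mice at 29.6, 88.6 and 296.6 RPM. miR-434 had 1 read against 61, a ratio of 26.3 (interval 4.54 to 1054), with day 21 mice at 20.6, 32.6 and 47.7 RPM. miR-376b was at 0, 12 and 12 RPM at day 0 and at 50.2, 102.5 and 721 RPM at day 21 (log2 fold change 4.82 ± 0.99, SE, adjusted p = 0.0047). That change rested on 6 reads at day 0 and ranged from 3.33 to 5.63 over the alternative settings. For these 3, mouse C was the highest at day 21 and mouse A the lowest.

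miR-299 and miR-409 had no read in any day 0 library. Against a limit of 3 reads in each of those libraries, miR-299 (16, 53.6 and 40.2 RPM at day 21) was at least 2.90-fold higher and miR-409 (4.57, 41.9 and 18.8 RPM) at least 1.73-fold higher. For miR-136 the lowest day 21 mouse was B. It was at 18.3, 59.5 and 28.2 RPM at day 0 and at 358, 65.2 and 295 RPM at day 21, and day 21 mouse B hardly exceeded day 0 mouse B (log2 fold change 2.56 ± 0.67, SE, adjusted p = 0.027). miR-154 (4.49, 12 and 8.10 RPM against 57.1, 56.0 and 317 RPM), miR-541 (9.36, 31.6 and 28.2 RPM against 52.5, 114 and 166 RPM) and miR-379 (4.49, 23.8 and 3.90 RPM against 31.9, 41.9 and 270 RPM) were called at adjusted p values of 0.021, 0.048 and 0.049. miR-411, which shares the seed of its 3′ arm with miR-379, missed the threshold with all mice apart (0, 19.8 and 8.10 RPM against 22.9, 41.9 and 233 RPM, adjusted p = 0.056). It passed without day 0 mouse B (adjusted p = 0.016) and without day 21 mouse A (0.034). With the mice apart the threshold was also missed by miR-300 (adjusted p = 0.084). Of all microRNAs with the mice apart that missed the threshold, these 2 had the highest log2 fold changes, followed by miR-211 (4.49, 3.92 and 0 RPM against 18.3, 7.03 and 31.4 RPM, adjusted p = 0.31). Without day 0 mouse B, 12 of the locus were called. Without day 21 mouse C, 4 were called, and centred on the library median also 4, each time miR-665, miR-434, miR-376b and miR-299. These 4 had day 0 means below 10 RPM, and miR-136, miR-541 and miR-379 were not called in either setting.

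The long RNAs of the locus were measured by RNA-seq. Meg3 was at 0.39, 0.18 and 0.35 FPKM at day 0 and at 1.19, 2.91 and 8.31 FPKM at day 21, and Rian was at 0.24, 0.12 and 0.23 FPKM against 0.95, 1.87 and 5.80 FPKM. Mirg, which carries miR-154 and miR-541 and passed the filter of 1 FPKM only through other groups, was at 0.02, 0 and 0.06 FPKM against 0.17, 0.39 and 1.6 FPKM. All 3 stood apart between the groups, as did 25.2% of all tested genes in the same direction. Meg3 and Rian also had day 0 means below that filter (0.31 and 0.20 FPKM). For all 3 a rise was thus partly a condition of being tested. Mouse C was the highest at day 21 and mouse A the lowest for each, as for the summed microRNAs, if the letters of both assays name the same mice. None was called on the log2(FPKM + 1) scale (adjusted p = 0.13, 0.13 and 0.35), where a constant of 1 is large beside such levels, and with a constant of 0.1 all 3 were called.

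Other imprinted loci had few reads. Neither microRNA of Igf2-H19 reached 10 RPM, and both had at most 4 reads in the day 21 libraries together, while the H19 RNA was at 2.03, 0.42 and 0.49 FPKM at day 0 and at 11.7, 42.9 and 3.92 FPKM at day 21 (log2 fold change 2.92, adjusted p = 0.061). H19 was called with a constant of 0.1 FPKM and with the 6 libraries alone. Its day 0 mean of 0.98 FPKM was just below the filter of 1 FPKM, so its rise was partly a condition of being tested. Igf2 overlapped between the groups (1.82, 0.20 and 0.22 FPKM against 0.50, 0.62 and 3.02 FPKM, log2 fold change 0.41, adjusted p = 0.90). At Gnas, miR-296 was at 18.3, 0 and 12 RPM against 20.6, 83.9 and 18.8 RPM (adjusted p = 0.22). The Sfmbt2 intron holds a large array of related hairpins that share mature sequences, so that reads cannot be assigned to single copies with certainty. Of 51 listed, 8 passed the filter, 6 of them with a day 0 mean below 10 RPM, and the summed level of all 51 was 100.3, 198 and 107.4 RPM at day 0 and 331, 240 and 475 RPM at day 21. Its 1 call was miR-669o (mm9, chr2:10435927-10436022, plus strand), with 2 reads at day 0 and 79 at day 21, a ratio of 17.0 (exact 95% interval of counting error 4.56 to 142.9) and day 21 mice at 29.6, 11.6 and 76.7 RPM (adjusted p = 0.017).

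The miR-200 family and the list of mesenchymal microRNAs had 0 calls by limma on either scale, the log2 values or voom. Without day 0 mouse B, miR-200a, miR-141, miR-429 and miR-214 were called. All 5 of the miR-200 family were higher, where 163 of all 228 were. At an unadjusted p of at most 0.05, 4 of the family were higher, where 39 of the 228 were. The family's median was 1.52 against 0.52 for all 228. miR-200a came nearest to the threshold with 394, 523 and 141.3 RPM at day 0 and 773, 820 and 1643 RPM at day 21 (log2 fold change 1.72 ± 0.55, SE, adjusted p = 0.069). The family sum was 1066, 1235 and 311 RPM against 1487, 3018 and 2738 RPM, and its lowest value came from day 0 mouse C, whose median microRNA was also low. miR-141 was listed at 0 in that mouse (23.2, 31.6 and 0 RPM against 36.5, 39.6 and 77.9 RPM, adjusted p = 0.17). Bile duct markers in the RNA-seq data were summed at 46.1 to 59.2 FPKM at day 0 and 137 to 203 FPKM at day 21. Epcam and Spp1 were called higher (2 of 5), where 6.2% of all tested genes were. Spp1 alone made up 40.9 to 54.6 FPKM and 129 to 194.8 FPKM of these sums, and the median log2 fold change of the 5 was 0.21, with Krt7, Krt19 and Sox9 overlapping between the groups. The part of this in the miR-200 values was not tested.

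miR-214 was the mesenchymal microRNA with the lowest p (125, 119 and 60.6 RPM against 216.7, 445 and 544.2 RPM, log2 fold change 1.94 ± 0.60, SE, adjusted p = 0.056). It passed the threshold with miR-21 also set aside (adjusted p = 0.049) and without day 21 mouse A (0.034). miR-214 is cut from the same transcript as miR-199a-2, yet miR-199a-2 was at 398, 649.6 and 125 RPM against 465, 196 and 621 RPM, so the groups overlapped. The list of 6 had 2 at an unadjusted p of at most 0.05 (miR-214 and miR-145) and a median of 0.42 (-0.08 centred on the library median). Stellate cell and fibroblast markers had 1 call of 7, Col3a1, and 6 of 7 with all day 21 mice above all day 0 mice, with summed levels of 18.3 to 26.6 FPKM at day 0 and 47.3 to 67.7 FPKM at day 21, and endothelial markers had 1 call of 4, Pecam1, and 2 of 4 with the mice apart, with 19.7 to 45.7 FPKM against 47.0 to 64.5 FPKM. Over all tested genes 6.2% were called higher and 25.2% had the mice apart in this direction. miR-126, the endothelial microRNA, was at 37749, 42476 and 38189 RPM at day 0 and 45750.5, 34442 and 50260.2 RPM at day 21, with a log2 fold change of 0.12 ± 0.42 (SE).

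**Figure D4:**
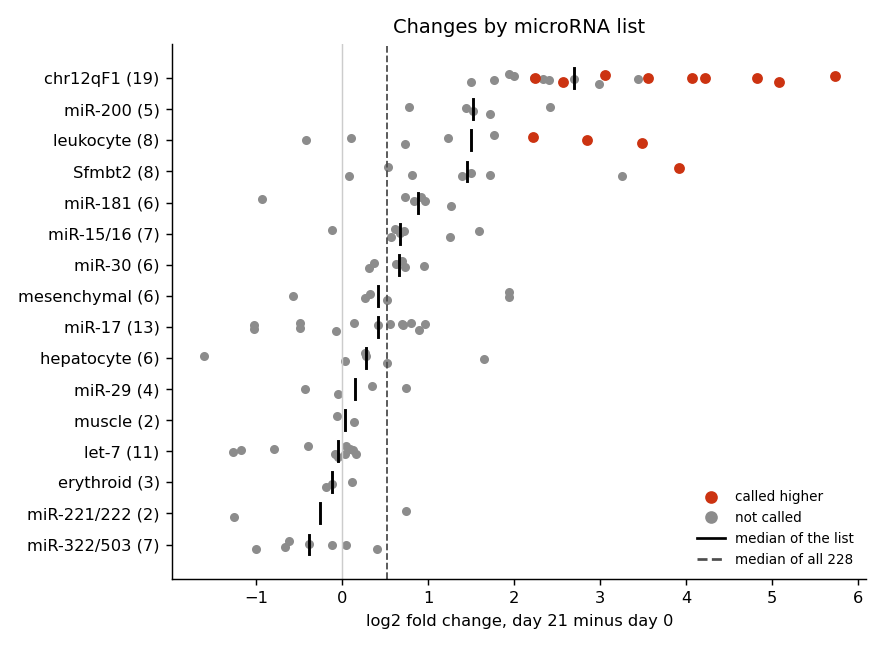
Log2 fold change at day 21 of the members of each list, with the number of members in brackets, called members in colour, a black line at the list's median and a dashed line at the median of all 228. The chr12qF1, miR-200 and leukocyte lists have medians of 2.69, 1.52 and 1.5 (13 of the 19 in chr12qF1 were below 10 RPM at day 0, and the other 6 have a median of 2.23), while the let-7 list and the X-linked cluster of miR-322 and miR-503 have medians of -0.05 and -0.39.

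The most abundant microRNAs did not pass the test. The 10 highest at day 0 were miR-21, let-7a-2, let-7f-2, let-7f-1, miR-26b, miR-192, let-7c-2, miR-126, let-7g and let-7c-1, and they took 51.5% to 58.3% of the day 0 reads left without miR-122 and 40.4% to 60.1% of those of day 21. miR-21, which is often raised in injured and proliferating tissue, overlapped between the groups, with 4.54%, 22.4% and 1.70% of reads at day 0 and 12%, 8.58% and 33% at day 21 (log2 fold change 1.44 ± 0.69, SE, adjusted p = 0.27). Without day 0 mouse B it was called higher (log2 fold change 2.44, adjusted p = 0.011). let-7f-2 was at 88297, 32144 and 94871 RPM at day 0 and at 45331, 23320.4 and 18002 RPM at day 21 (log2 fold change -1.27 ± 0.55, SE, adjusted p = 0.21). let-7f-1 and miR-26b had log2 fold changes of -1.18 and -1.02 (adjusted p = 0.22 for both), and for these 3 it was day 0 mouse B that overlapped with day 21: without that mouse they were the 3 microRNAs called lower. Divided by all reads, miR-122 included, the 3 had positive values of 0.15, 0.25 and 0.40.

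The let-7 family, whose members repress growth and cell cycle genes, was spread over 11 members with 5 higher, 6 lower, 0 called, 2 at an unadjusted p of at most 0.05 (let-7f-1 and let-7f-2) and a median of -0.05. The sign of that median turned with the scaling: it was -0.54 with libraries centred on their medians, 0.10 with miR-21 also set aside and 1.37 relative to all reads. Of the reads left without miR-122, the family took 46%, 19% and 53.1% at day 0 and 31.4%, 29.2% and 20.4% at day 21. Hepatocyte-enriched microRNAs other than miR-122 had 0 calls among 6, 0 at an unadjusted p of at most 0.05 and a median of 0.27 (-0.22 centred on the library median), and the abundant miR-192 was at 32001, 68652 and 29104 RPM against 55163, 53262 and 38706 RPM. miR-148a, of the same list, had the lowest log2 fold change of it (347, 2047 and 190 RPM against 326.2, 182 and 79.2 RPM, -1.61 ± 0.82, SE, adjusted p = 0.31), with the high value of day 0 mouse B setting the mean.

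No call came from the remaining families by limma on the log2 values or voom. Of the miR-15/16 family, miR-15b was called higher with miR-21 also set aside, and miR-195 without day 0 mouse B or without day 21 mouse A. At an unadjusted p of at most 0.05 there were 2 of the miR-15/16 family, 1 of miR-181 and 0 of the miR-17, miR-30, miR-29, miR-221, miR-322, erythroid and muscle lists. The median log2 fold change was 0.42 over 13 members of the miR-17 clusters (-0.08 centred on the library median), 0.67 over 7 of the miR-15/16 family, 0.88 over 6 of miR-181, 0.66 over 6 of miR-30, 0.15 over 4 of miR-29, which represses collagen genes (-0.34 centred), and -0.26 over miR-221 and miR-222. The X-linked cluster of miR-322 and miR-503 had 2 of 7 members higher and a median of -0.39 (-0.89 centred and 1.02 relative to all reads). Erythroid microRNAs had a median of -0.12 over 3 members, and muscle microRNAs 0.03 over the 2 of 9 that passed the filter. No neural or pancreatic microRNA on the list of 10 passed it. The members nearest to the filter were miR-211 (10.9 RPM on average over the 6 mice) and miR-201 (10.5 RPM), and the nearest ones outside were miR-467d (9.63 RPM) and miR-1186 (9.05 RPM).

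RNA-seq gave a second readout for microRNAs that lie within longer genes. Of 54 such host genes, 39 were tested, and 2 were called higher and 0 lower, where 6.2% of all 11354 tested genes were called higher and 1.42% lower (7.62% in either direction). Evl, the host of miR-342, was at 1.92, 1.39 and 2.50 FPKM at day 0 and at 5.22, 5.35 and 7.5 FPKM at day 21 (log2 fold change 1.26 ± 0.30, SE, adjusted p = 0.026), so host and microRNA each had all day 21 mice above all day 0 mice. Evl is expressed in lymphocytes among other cells, and it was not called when day 0 mouse A, day 0 mouse B, day 21 mouse B or day 21 mouse C was left out. Ctdsp2, a phosphatase gene that hosts miR-26a-2, was at 10.1, 11.5 and 11.3 FPKM against 25.4, 26.7 and 23.7 FPKM (log2 fold change 1.13 ± 0.15, SE, adjusted p = 0.0033), while miR-26a-2 was at 43688, 11298 and 53344 RPM against 15989, 30266 and 21813 RPM (log2 fold change -0.44 ± 0.52, SE, adjusted p = 0.66). miR-26a-1 gives the same mature 5′ strand from another gene and was listed at almost the same levels, so these reads do not show which hairpin they came from.

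Levels at other days placed day 21 within the course of the experiment. Days 7, 14 and 45 each had 3 mice and were compared with the same 3 day 0 mice, so these comparisons share their controls with that of day 21. The 228 were also chosen by their mean over days 0 and 21, so counts of the other days are not fully comparable with that of day 21. At day 7, 1 of the 228 was called higher (0.439%), namely miR-34a. At day 14 there were 2 (0.877%), miR-34a and miR-155. At day 45 there were 36 higher (15.8%) and 1 lower, and the 36 held 13 of the 15 of day 21, with miR-223 and miR-669o missing. The called microRNAs differed in their timing. miR-34a was at 796 to 2246 RPM at day 7, 2284 to 2734 RPM at day 14, 1257 to 1522 RPM at day 21 and 304 to 2810 RPM at day 45, and single mice had 1766 RPM at day 2, 8133 RPM at day 17 and 114 RPM at day 200. miR-155 stayed at 23.3 to 56.1 RPM at day 7, with 1 mouse within the day 0 range and the others below it, and was at 204 to 2031 RPM at day 14 and 277 to 430.7 RPM at day 45.

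The chr12qF1 microRNAs had their highest levels after day 21. Their summed level was 466.9 ± 95 RPM at day 7, 761 ± 183 RPM at day 14, 2089 ± 1517 RPM at day 21 and 39869 ± 27811 RPM at day 45 (SD, n = 3 each), and the single mice of days 100 and 200 had 72948 and 51942 RPM. miR-665 was at 403, 2309 and 3292 RPM in the day 45 mice A, B and C, against at most 296.6 RPM at day 21. Livers of LKO mice, which carry Cre under the Albumin promoter and still had 9.38% and 3.09% of their microRNA reads from miR-122, had sums of 14874 and 69768 RPM, whereas 2 wild-type livers at P270 had 457 and 359 RPM, the first from only 10 reads and from a column whose listed values add up to 516634 RPM before rescaling, so that its denominator may be incomplete. LKO livers had 822 and 1028 RPM of miR-342 and 243 and 261.5 RPM of miR-34a, the latter near the highest day 0 mouse. In livers of E18 fetuses the chr12qF1 sum was 272207 and 233710 RPM.

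**Figure D5:**
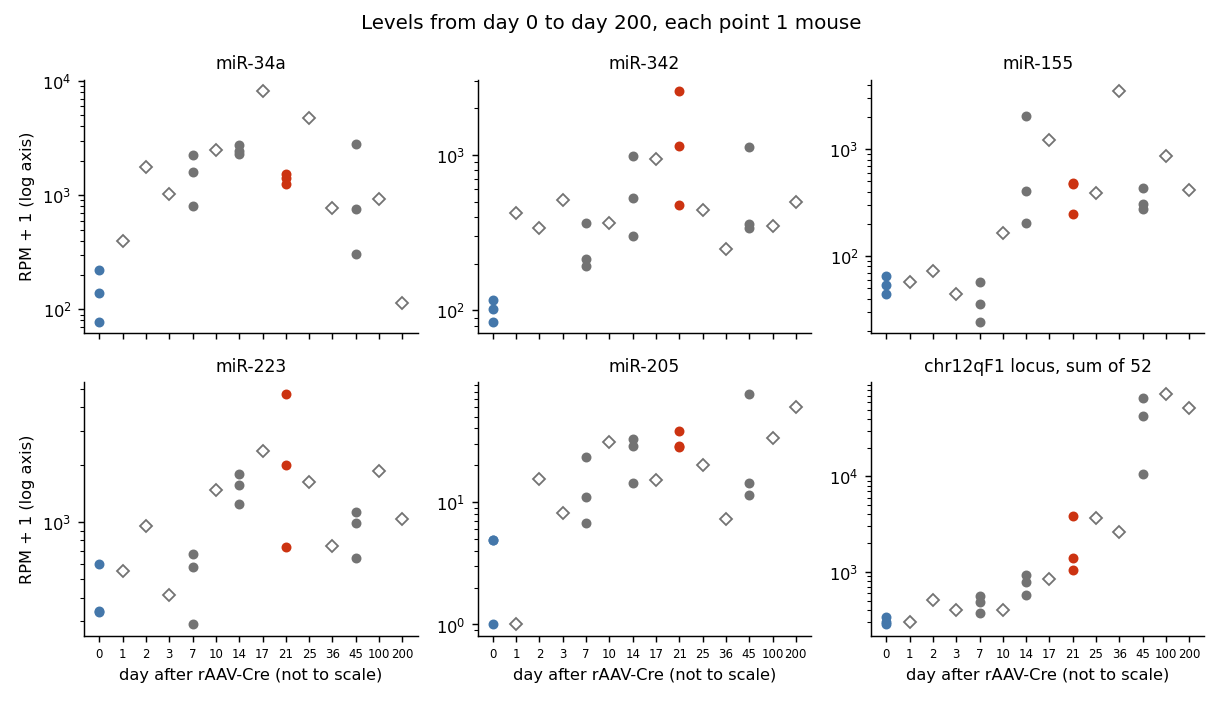
RPM + 1 on a log axis at each day after the injection (days not to scale), with 1 point per mouse and 3 mice at days 0, 7, 14, 21 and 45. The chr12qF1 sum lies at 281 to 337.8 RPM at day 0, 1043 to 3829 RPM at day 21 and 10710 to 66099 RPM at day 45, while miR-34a is above its day 0 mice from day 1 and back among them at day 200.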

How the data were processed

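Small RNA libraries were made by the authors from Trizol-extracted liver RNA, with ligated adapters and gel size selection, sequenced on a MiSeq and matched with Bowtie 0.12.7 to hairpins of miRBase release 15, with mismatches allowed. How reads that match several hairpins were counted is not given in the sources used here. The deposited microRNA values are RPM with 1 added. Here the 1 was removed and each library was rescaled to its reads other than miR-122, so that RPM in the text means reads per 1000000 of those. Deposited values are rounded, so the RPM of 1 read is approximate. The low values (up to 100 reads) of each library were whole multiples of 1 read's worth within 0.1 read for 100% of values, which gave the numbers of reads.

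The deposited RNA-seq values are FPKM, which the authors made with TopHat and Cufflinks 2.2.1 (quartile normalization) on mm9. Depth of those libraries is unknown, as the files hold no counts. All 42 small RNA and 14 RNA-seq columns were matched to samples by name, and the columns of days 0, 7, 14, 21 and 45 were fitted together.

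MicroRNA values were tested as log2(RPM + 1) with limma 3.58.1 (R 4.3.3; eBayes with trend) in 1 fit of 15 libraries (10 residual degrees of freedom), for the 228 microRNAs whose mean over the 6 libraries of days 0 and 21 reached 10 RPM, with Benjamini-Hochberg adjustment and a threshold of 0.05. RNA-seq was tested in the same way as log2(FPKM + 1) for the 11354 genes whose mean over all 14 RNA-seq libraries, later days and knockouts included, reached 1 FPKM, all fitted together. Fold changes on these scales depend on the added constant where values are low: those of genes at low FPKM are understated, and a microRNA at 0 RPM in some mice can be overstated, since 1 read is worth more than 1 RPM. Where a microRNA had at most 3 reads at day 0, the ratio of pooled reads with its exact interval (95%) was given, and with no reads a bound against 3 reads per library. Intervals and limits cover counting error only. P-values measure the spread between mice, 1 library each.

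Members and lists were chosen with earlier results of these data known. Named were all called microRNAs, the 5 largest rises with mice apart among the others (no fall had the mice apart), the 10 highest at day 0, members of the lists, those nearest to 10 RPM, host genes and cell type markers. On simulated data for the 228 microRNAs, changes of 2, 4 and 6 on the log2 scale were called in 80%, 80% and 100% of cases, with 3 false calls among 183 unchanged microRNAs. The simulated spread was drawn separately for each microRNA, without shifts in composition shared across a library, so these rates need not hold for the real libraries.

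Alternatives were another constant, other filters, other scalings, the 6 libraries alone, no trend, a replicate block, voom and leaving out each mouse. Places are those of mm9 (GENCODE vM1). Mature sequences come from RefSeq. Python 3.11.15 was used for the summaries.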

Additional observations from a re-analysis of the deposited data

Results flagged for a closer look

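Outside the 228 members, 250 microRNAs lay below 10 RPM, of which 94 had no read in the 6 libraries. Among these 250, 17 had a read in all 3 day 21 libraries and in no day 0 library, and 0 showed the opposite. They had 1 to 9 reads per library, 4 belonged to chr12qF1 (miR-377, miR-380, miR-487b and miR-1193) and 4 to the Sfmbt2 intron (miR-466b-2, miR-466c, miR-466f-2 and miR-669a-3). These lists are long: of 52 and 51 hairpins, 19 and 8 were members, and the rest were among the 250. Some of the 17 would fall in each list by its size alone, and an excess over that was not tested. Day 21 libraries held more reads other than miR-122 (429070 to 795619 against 215901 to 252521), and the part of that depth in the 17 was not tested. They were singled out because the comparison above does not use them. Groups of 3 mice were too small for a check of single outlying mice.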

How the results depend on the processing

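The count of 15 microRNAs called higher and 0 lower was kept within 1.5 times by no filter (10), a filter over all 15 libraries (13), no trend (13), miR-21 also set aside (17) and voom on recovered reads (10). It was 7 with log2(RPM + 10), 7 with libraries centred on their medians, 7 with the 6 libraries alone, 6 with at least 100 RPM (150 tested) and 147 relative to all reads, where the loss of miR-122 raises the share of every other microRNA. Leaving out 1 mouse gave 6 (without day 21 mouse C) to 26 (without day 0 mouse B) higher and 0 to 3 lower. miR-342, miR-34a and miR-376b passed the threshold in all 17 alternatives and miR-665 in the 16 in which it was tested. miR-379 and miR-541 did so in 5, miR-409 in 7, miR-205 and miR-136 in 8, miR-154 in 9, miR-669o in 11, miR-223 in 12, and miR-155, miR-299 and miR-434 in 15. Relative to all reads, let-7f-1, let-7f-2 and miR-26b turned to 0.25, 0.15 and 0.40. miR-122 per other read fell in each alternative tried. Host transcripts called numbered 6 with log2(FPKM + 0.1), 3 with the 6 libraries alone, and 1 to 2 when a mouse was left out. The causes of these shifts were not tested.

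The replicate letters are shared between groups of different mice. Deviations of same-letter mice correlated at -0.01 (A), -0.25 (B) and 0.20 (C) across microRNAs, beside -0.35 to 0.32 for mice of different letters. No pairing by letter was seen, though groups of 3 mice cannot exclude it. With the replicate block, 17 microRNAs were called higher, the 15 among them with miR-411 (adjusted p = 0.018) and miR-214 (0.045) in addition, 0 were called lower, and 3 host transcripts were called (H19 in addition), and miR-122 kept its change of -4.0 (permutation within letters, p = 0.25, the smallest possible). Depth sets a limit for microRNAs with no read, of 11.9 to 13.9 RPM in the day 0 libraries and 3.77 to 6.99 RPM in the day 21 libraries.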
